A study of Homo sapiens with 8 samples.

Results

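Peaks of YAP, TAZ, TEAD1, TEAD4 and tagged YAP5SA were examined around 5 genes that protect cells from death. BCL2L1 and MCL1 belong to the BCL2 family, and BIRC2, BIRC3 and BIRC5 to the inhibitor of apoptosis (IAP) family. All peaks with a centre within 100 kb of the transcription start site (TSS) of one of these genes were taken, in hg19 coordinates: BCL2L1 on chromosome 20 at 30311792, MCL1 on chromosome 1 at 150552214, BIRC3 and BIRC2 on chromosome 11 at 102188181 and 102217966, and BIRC5 on chromosome 17 at 76210277. This gave 53 of the 51828 peaks in the 5 lists. The TEAD1 list contributed 33 of its 38186 peaks, TEAD4 17 of 12188, HA-YAP5SA 3 of 847, YAP 0 of 454 and TAZ 0 of 153. The TSSs of BIRC3 and BIRC2 are 29.8 kb apart, so their windows overlap, and a peak in both windows was counted once in these totals.

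The data are ChIP-seq peak lists, that is, regions enriched in sequencing after chromatin immunoprecipitation. Every library was made from HuCCT1, an established line of human bile duct cancer (cholangiocarcinoma) cells. The groups were HA-YAP5SA (chromatin enriched through an HA tag on YAP5SA, a YAP form in which serines targeted by the LATS kinases are alanine), YAP, TAZ (the product of WWTR1), TEAD1 and TEAD4, with 1 library each. The GFP, IgG and input libraries, described as background in the design, were not analysed here. How YAP5SA was introduced, what drove it, and whether the cells of the other libraries carried it are not stated in the labels. With 1 library per antibody there is no replicate check of any difference, and sequencing depth is unknown.

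Mitochondrial apoptosis is held in check by BCL2-family proteins such as BCL-XL (from BCL2L1) and MCL1, which bind and restrain the pore-forming members BAX and BAK. The IAP proteins cIAP1 (BIRC2) and cIAP2 (BIRC3) are ubiquitin ligases of the TNF receptor pathway that favour survival signalling through NF-kappa B, and survivin (BIRC5) acts both in cell division and against cell death. YAP and TAZ are Hippo-pathway coactivators that reach DNA mainly through TEAD factors. The IAP gene Diap1 is a textbook target of the YAP orthologue Yorkie in Drosophila.

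The genes lie at 4 loci, since BIRC3 and BIRC2 share one, and these differed in how much TEAD they carried and where (the map of peaks by distance from the TSS). BCL2L1 had 10 TEAD1, 5 TEAD4 and 1 HA-YAP5SA peak, most of them downstream of its TSS. MCL1 had 8 TEAD1, 3 TEAD4 and 1 HA-YAP5SA peak. BIRC3 had 10 TEAD1, 6 TEAD4 and 1 HA-YAP5SA peak, and BIRC2 had 8 TEAD1 and 4 TEAD4 peaks and no HA-YAP5SA peak. Of these, 7 TEAD1 and 3 TEAD4 peaks lay in both windows. BIRC5 had 4 TEAD1 and 2 TEAD4 peaks and no HA-YAP5SA peak.

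**Figure D1:**
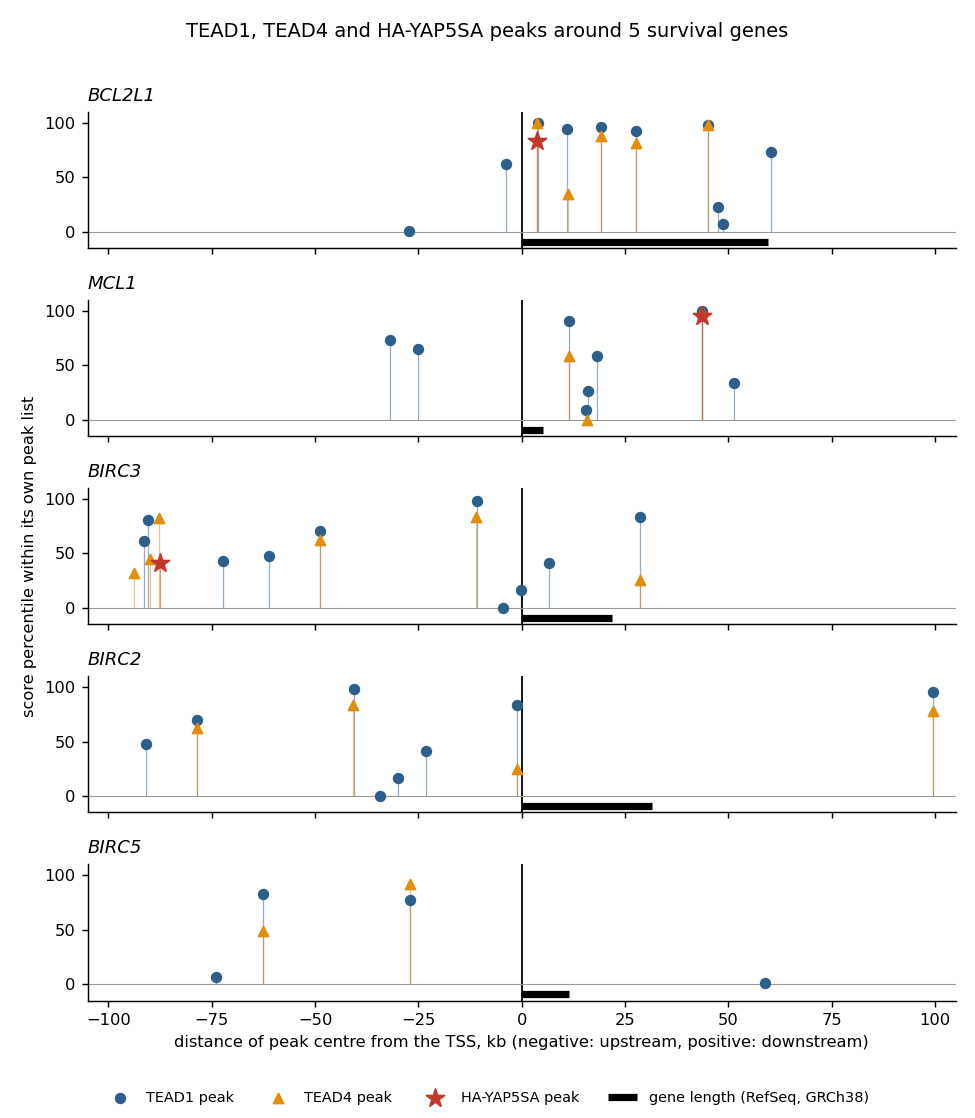
Each panel plots the peaks within 100 kb of the TSS of 1 gene. The x axis is the distance of the peak centre from the TSS in kb along the gene, the y axis the percentile of the peak's score within its own list, and the black bar the gene's length. BCL2L1 has 7 TEAD1 and 5 TEAD4 peaks downstream of the TSS within its length, whereas the windows of MCL1, BIRC2 and BIRC5 have none there.

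For scale, chromosomes 1 to 22 and X were cut into 14740 tiles of 200 kb, the width of 1 window. The tiles held a median of 2 TEAD1 peaks. At least 10 TEAD1 peaks, as at BCL2L1 and BIRC3, were found in 3.32% of tiles, and at least 8, as at MCL1 and BIRC2, in 7.23%. At least 4, as at BIRC5, were found in 28.3%, so BIRC5 was not unusual in this respect. For TEAD4, 2.73% of tiles had the 5 peaks of BCL2L1 or more, 1.54% the 6 of BIRC3, 5.37% the 4 of BIRC2, 10.7% the 3 of MCL1 and 20.2% the 2 of BIRC5. Without the peaks 80 to 100 kb upstream of BIRC3, which are described apart below, BIRC3 had 8 TEAD1 and 3 TEAD4 peaks, numbers that 7.23% and 10.7% of tiles reached. The tiles include stretches without genes, and windows around other TSSs were not analysed here, so these shares describe the genome and not other genes.

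**Figure D2:**
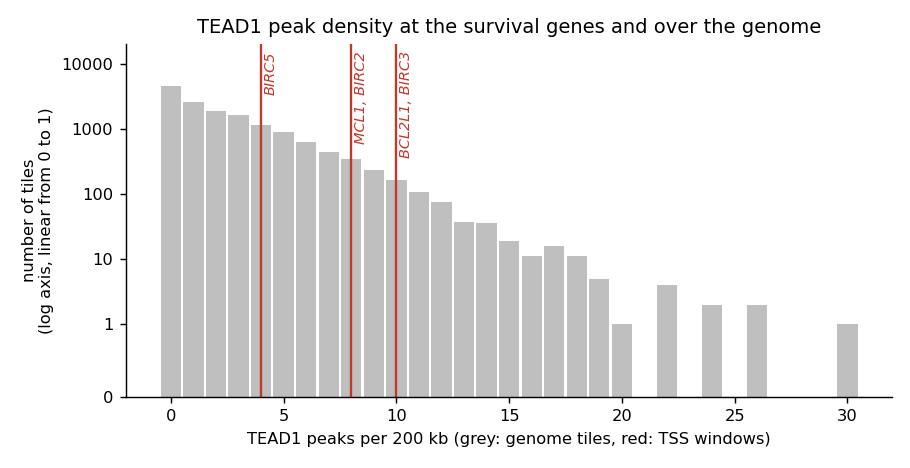
The number of genome tiles (y axis, log scale above 1) is plotted against the number of TEAD1 peaks per 200 kb (x axis), with the 5 TSS windows as red lines. BCL2L1 and BIRC3, with 10 peaks, lie in the upper tail that 3.32% of tiles reach, and BIRC5, with 4, lies where 28.3% of tiles reach.

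The scores of TEAD peaks around the genes spread over the whole range of their lists. The score is the authors' own value for each peak, on a scale that is not stated, and is used here only to rank peaks within a list. The 33 TEAD1 peaks had a median score of 250.1 (lowest 80.3, highest 2344), against 177 for the other 38153 TEAD1 peaks. Their median percentile in the list was 64.9 (95% interval 41.6 to 82.7). The 17 TEAD4 peaks had a median score of 291 (80.3 to 1394), against 162 for the other 12171, and a median percentile of 77.8 (44.6 to 87.5). Both intervals include the 50th percentile. Intervals here and below cover counting error over peaks, which are not replicates.

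Some of these TEAD1 peaks were among the highest of the list. Of the 33 TEAD1 peaks, 9 (27.3%) were at or above the 90th percentile, where 10% of all TEAD1 peaks lie, and 5 of these 9 were at BCL2L1, 2 at MCL1 and 2 in the BIRC3 and BIRC2 region. BIRC5 had none. All 9 overlapped a TEAD4 peak, as did 97% of all TEAD1 peaks in that part of the list, and 2 of the 9 overlapped HA-YAP5SA, against 17.3%. For TEAD4, 4 of the 17 peaks (23.5%) were at or above the 90th percentile of their list, where 10% of all TEAD4 peaks lie, 2 at BCL2L1, 1 at MCL1 and 1 at BIRC5.

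**Figure D3:**
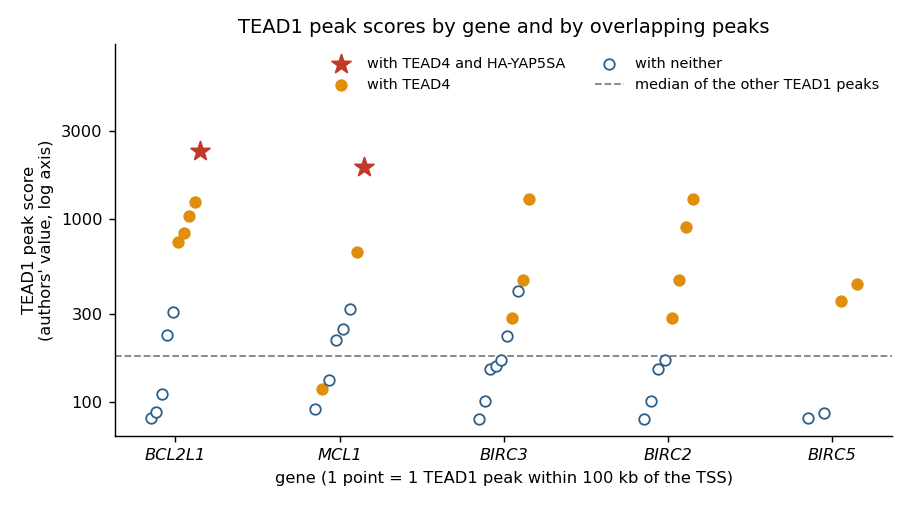
Each point is 1 TEAD1 peak, with the gene on the x axis and the authors' score on a log y axis, and the colour and shape give the other peaks that overlap it. Points in both the BIRC3 and the BIRC2 window are drawn in both columns. Peaks with TEAD4 sit mostly above those with neither, and the 2 peaks that also carry HA-YAP5SA, at 2344 and 1909, are the highest.

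BCL2L1 had the strongest TEAD site of the 5 genes, and YAP5SA was on it. A TEAD1 peak with a score of 2344 (30307100 to 30308559) lay 3.96 kb downstream of the BCL2L1 TSS and ranked 66 of 38186. The TEAD4 peak on it (30307541 to 30308515, score 1394) ranked 49 of 12188. An HA-YAP5SA peak (30307933 to 30308246, score 205) lay within both and ranked 141 of 847. Its centre was 62 bp from that of TEAD4 and 260.0 bp from that of TEAD1. A highest TEAD1 score of 2344 or more was found in 0.441% of the 200 kb tiles, and a highest TEAD4 score of 1394 or more in 0.332%.

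Further TEAD sites followed inside BCL2L1. RefSeq gives the gene a length of 59.5 kb (in GRCh38), and 7 TEAD1 and 5 TEAD4 peaks lay downstream of the TSS within that distance. Beyond the site with YAP5SA, 4 of them carried both factors. At 10.9 kb TEAD1 scored 837 and TEAD4 125, at 19.2 kb 1039 and 403, at 27.7 kb 749 and 327, and at 45.2 kb 1236 and 788. All 4 of these TEAD1 peaks were above the 90th percentile and none overlapped HA-YAP5SA. The TEAD4 peaks ranged more widely, between the 34.3 percentile at 10.9 kb and the 97.5 percentile at 45.2 kb. Weaker TEAD1 peaks without TEAD4 lay at 47.6 kb (score 109.5) and 48.6 kb (score 88.1), and another at 60.3 kb (score 311), just past the gene's length. Upstream there were TEAD1 peaks at 3.69 kb (30315161 to 30315807, score 231), the nearest to the TSS by its centre, and at 27.3 kb (score 81.0), and no TEAD4 peak. No peak of any list covered the BCL2L1 TSS.

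MCL1 had its strongest site away from the gene. MCL1 is short, 5.05 kb in RefSeq, and no peak lay within it. The nearest TEAD1 peak (150540364 to 150541271, score 661, percentile 90.8) was centred 11.4 kb downstream of the TSS and overlapped a TEAD4 peak (150540574 to 150541099, score 190.3, percentile 58.7). The site with YAP5SA lay 43.6 kb downstream. There TEAD1 (150508040 to 150509185) scored 1909 and ranked 152, TEAD4 (150508219 to 150508959) scored 949 and ranked 178, and HA-YAP5SA (150508338 to 150508834) scored 351 and ranked 45. The 3 centres were close together, TEAD4 3 bp and TEAD1 26 bp from HA-YAP5SA. ADAMTSL4 and ENSA are among the genes next to MCL1 in RefSeq, and which gene this site acts on was not measured.

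The sites at BCL2L1 and MCL1 ranked in opposite order for TEAD and for YAP5SA. BCL2L1 ranked higher for TEAD1 (66 against 152 at MCL1) and for TEAD4 (49 against 178). MCL1 ranked higher for HA-YAP5SA (45 against 141 at BCL2L1). Each rank comes from 1 library, so the order has no replicate check. Of all TEAD1 peaks, 763 carried both TEAD4 and HA-YAP5SA, and their median TEAD1 percentile was 97.7, below the 99.8 of the BCL2L1 site and the 99.6 of the MCL1 site. Among all 382 TEAD1 peaks at or above the 99th percentile, 60.7% overlapped HA-YAP5SA. At the survival genes both such peaks did.

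The other MCL1 peaks were weaker. TEAD1 peaks downstream at 15.5, 16.0 and 18.3 kb had scores of 90.8, 117 and 216, and the peak at 16.0 kb carried TEAD4 with a score of 80.3, near the bottom of the TEAD4 list (percentile 0.3). A TEAD1 peak at 51.4 kb had a score of 131. Upstream, TEAD1 peaks at 25.1 kb (score 250.1) and 31.9 kb (score 320) had no TEAD4.

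BIRC3 was the single gene of the 5 whose TSS was covered by a peak. This TEAD1 peak (102187824 to 102188323) was weak, with a score of 100.2 at percentile 16.5, was centred 0.107 kb upstream of the TSS, and overlapped no other list. At BIRC2 the nearest TEAD1 peak (102216483 to 102217109, score 460, percentile 83.6) was centred 1.17 kb upstream and ended 857 bp before the TSS. It overlapped a TEAD4 peak (102216619 to 102216932, score 110.4, percentile 25.3). The promoters of these neighbouring paralogues are shown because they are the pair with TEAD peaks closest to a TSS. The sequences are the 250 bases before the start of each gene in RefSeq (GRCh38.p14, plus strand), chr11:102317234-102317483 for BIRC3 and chr11:102346964-102347213 for the first of the starts given for BIRC2. They are numbered in another build than the peaks, and the RefSeq start may differ from the hg19 TSS used above. Capitals mark matches to kappa B, the motif bound by NF-kappa B, in the form of its consensus used here.
BIRC3: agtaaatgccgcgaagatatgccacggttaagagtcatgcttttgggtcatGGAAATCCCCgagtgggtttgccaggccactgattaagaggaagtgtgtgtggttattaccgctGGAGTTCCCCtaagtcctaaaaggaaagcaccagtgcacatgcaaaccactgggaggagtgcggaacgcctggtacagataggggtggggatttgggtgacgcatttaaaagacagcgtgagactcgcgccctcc
BIRC2: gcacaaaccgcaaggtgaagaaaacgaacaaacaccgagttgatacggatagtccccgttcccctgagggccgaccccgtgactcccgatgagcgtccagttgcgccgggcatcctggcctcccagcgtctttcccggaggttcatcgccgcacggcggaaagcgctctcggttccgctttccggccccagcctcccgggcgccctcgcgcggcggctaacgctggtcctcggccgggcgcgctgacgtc

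The BIRC3 promoter held 2 kappa B matches, starting 199 and 135 bases before the gene start, and the BIRC2 promoter held none. These counts, and the shares of promoters given next, hold for the form of the consensus used, and looser or stricter forms could give others. At least 1 such match, on either strand, was found in 5.21% of 35116 promoters of the same length in the table, and at least 2 in 0.635%. The TEAD core motif GGAATG, found in 11.9% of promoters on either strand, and the AP-1 motif TGANTCA, found in 6.57%, were not in either window. No match of one motif overlapped a match of another there. Measured from the hg19 TSS, the BIRC3 peak extends beyond a window of this length. The BIRC2 peaks ended 857 bp (TEAD1) and 1034 bp (TEAD4) before the TSS, outside such a window. The sequence of the peaks was not analysed here, so motifs missing from these windows do not describe the peaks. RefSeq promoters were matched for BCL2L1, BIRC2 and BIRC3, 3 of the 5 genes. The promoters of the second start given for BIRC2 and of both starts given for BCL2L1 held no match to kappa B, GGAATG or TGANTCA. The motif TATAAA was also searched and was found in 10.7% of promoters. It had 2 matches in the promoter of the first BCL2L1 start and none in the other promoters of these 3 genes.

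The strongest TEAD site of the chromosome 11 region lay upstream of both IAP genes. It was 10.7 kb upstream of the BIRC3 TSS and 40.5 kb upstream of the BIRC2 TSS. TEAD1 there (102176793 to 102178071) scored 1285 and ranked 712, and TEAD4 (102176956 to 102177430) scored 351 and ranked 1974. HA-YAP5SA was not on it. A site with both TEADs also lay 48.8 kb upstream of BIRC3 (TEAD1 score 288, TEAD4 score 203). Another lay 99.5 kb downstream of BIRC2, just inside the window, with TEAD1 at 900.0 (102317154 to 102317869) and TEAD4 at 291 (102317335 to 102317688). TMEM123 and MMP7 are the next genes past BIRC2 in RefSeq, and which gene this site acts on was not measured. Between the BIRC3 and BIRC2 TSSs, a TEAD1 peak at 6.60 kb downstream of BIRC3 (score 151) fell within the BIRC3 length of 21.9 kb, and no peak fell within the BIRC2 length of 31.5 kb. TEAD1 peaks without TEAD4 also lay at 4.51, 61.0 and 72.3 kb upstream of BIRC3, with scores of 80.3, 168 and 156, and at 90.5 and 91.4 kb upstream, given below.

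The HA-YAP5SA peak counted for BIRC3 lay at the far end of its window, 87.6 kb upstream (102100430 to 102100723, score 106, rank 499 of 847), and differed from those at BCL2L1 and MCL1. It overlapped a TEAD4 peak (102100323 to 102100745, score 340, percentile 82.8) but no TEAD1 peak, the nearest ending 2.48 kb away. Of all 847 HA-YAP5SA peaks, 2 had TEAD4 without TEAD1 and 781 had both. Narrow TEAD4 peaks without TEAD1 also lay 89.9 kb (102098191 to 102098379, score 148) and 93.8 kb (102094337 to 102094491, score 122) upstream of BIRC3. These 3 TEAD4 peaks spanned 6.41 kb and were 155 to 423 bp wide, against 314 to 975 bp for the 14 TEAD4 peaks of these loci that overlapped TEAD1. In the whole TEAD4 list 353 peaks lacked TEAD1, with a median width of 302 bp, so the 423 bp peak with HA-YAP5SA was not narrow among them. The 3 peaks here were the only ones of the 353 with 2 or more further such peaks within 10 kb, a distance chosen after the peaks had been seen. TEAD1 peaks at 90.5 kb (score 404) and 91.4 kb (score 229) lay among them without overlapping them.

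The next gene upstream of BIRC3 in RefSeq is YAP1, which encodes the protein that was tagged. No hg19 gene annotation was used, so it was not determined whether the peaks 80 to 100 kb upstream of BIRC3 lie inside YAP1. Whether DNA of the YAP5SA construct added to the peaks on this side was not tested. Without the peaks 80 to 100 kb upstream of BIRC3, the loci held 31 TEAD1, 14 TEAD4 and 2 HA-YAP5SA peaks, and all 14 TEAD4 peaks overlapped TEAD1.

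Within 100 kb, BIRC5 had the fewest peaks of the 5 genes, and its nearest was 27.0 kb from the TSS. The nearest were a TEAD1 peak (76182955 to 76183604, score 356, percentile 77.0) and a TEAD4 peak (76182938 to 76183611, score 503, percentile 92.0) on the same site, 27.0 kb upstream. AFMID and TK1 are the next genes upstream of BIRC5 in RefSeq. No hg19 gene annotation was used, so whether this site lies at either of them was not determined. Which gene it acts on was not measured. A second site with both factors lay 62.5 kb upstream, where TEAD1 (76147321 to 76148276) scored 441 and TEAD4 (76147459 to 76147852) scored 160. TEAD1 peaks without TEAD4 at 74.0 kb upstream and 58.9 kb downstream had scores of 86.6 and 81.3. The nearest HA-YAP5SA peak was 1015 kb from the BIRC5 TSS. The count at BIRC5 depended on the window, since 17 TEAD1 and 8 TEAD4 peaks lay within 200 kb. At that width BIRC5 was no longer lowest, as MCL1 had 11 TEAD1 and 3 TEAD4 peaks, while BCL2L1 had 17 and 10, BIRC3 20 and 10, and BIRC2 20 and 11. The first TEAD1 peak outside the 100 kb limit was at 103.3 kb (score 113), and the last one inside it was at 74.0 kb. At MCL1 the limit fell between TEAD1 peaks at 51.4 and 101.9 kb, and at BIRC2 between 99.5 and 102.0 kb.

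Overlap between the factors at the survival genes was set beside the whole lists. Of the 33 TEAD1 peaks, 14 (42.4%, exact interval 25.5 to 60.8%) overlapped TEAD4, against 30.6% of all TEAD1 peaks, which lies inside the interval. Of the 33 TEAD1 peaks, 2 (6.06%, 0.743 to 20.2%) overlapped HA-YAP5SA, against 2.06%, again inside the interval. Of the 17 TEAD4 peaks, 14 (82.4%, 56.6 to 96.2%) overlapped TEAD1, against 97.1%, which is above the interval, and the 3 exceptions were those on the YAP1 side of BIRC3. HA-YAP5SA was on 3 of the 17 TEAD4 peaks (17.6%, 3.8 to 43.4%), against 6.28%, again inside the interval. Of these 3 peaks, 1 was on the YAP1 side of BIRC3. Of the 3 HA-YAP5SA peaks, 2 overlapped TEAD1, against 95.2% of the whole HA-YAP5SA list, and all 3 overlapped TEAD4, against 92.4%.

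At 3 of the 5 TSS windows, which cover 4 loci because those of BIRC3 and BIRC2 overlap, there was an HA-YAP5SA peak. Of the genome's 200 kb tiles, which do not overlap, 5.07% held one. Among tiles with at least 8 TEAD1 peaks, as many as MCL1 and BIRC2 had, 24.4% held one. Without the peak on the YAP1 side, HA-YAP5SA was in 2 of the windows. The 5 genes were chosen with earlier results of these data known, so no test was made of this.

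TEAD1 peaks with TEAD4 had higher scores than those without at these genes, as in the whole list. The median score was 793 for the 14 peaks with TEAD4 (range 117 to 2344) and 151 for the 19 peaks without it (range 80.3 to 404). The ranges overlapped. In the whole list the medians were 452 and 136. At the 14 sites where both were found, the centres of TEAD1 and TEAD4 were a median of 47 bp apart (0 to 268 bp). The ranks of the TEAD1 and TEAD4 scores went together, with Spearman's rho of 0.71 over the 14 sites and 0.71 over the 11841 overlapping pairs of the whole lists, across sites of the same pair of libraries. The TEAD4 percentile was above the TEAD1 percentile at 1 of the 14 sites, the one 27.0 kb upstream of BIRC5, and in 6.67% of all pairs. The largest gaps the other way were 10.9 kb downstream of BCL2L1 (percentiles 94.2 for TEAD1 and 34.3 for TEAD4) and 1.17 kb upstream of BIRC2 (83.6 and 25.3). The lists differ in length (38186 TEAD1 and 12188 TEAD4 peaks), and TEAD1 peaks with TEAD4 score high in their own list. A higher TEAD1 percentile is therefore the usual case at shared sites and does not compare the strength of binding.

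**Figure D4:**
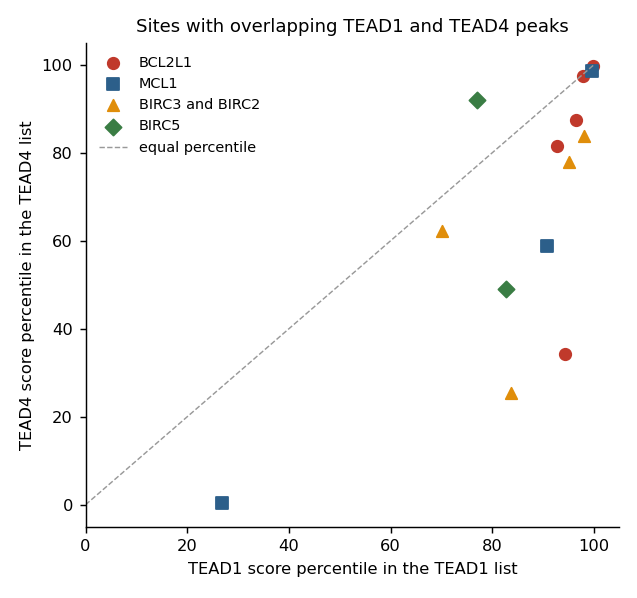
Each point is 1 of the 14 sites where a TEAD1 and a TEAD4 peak overlap, with the percentile of the TEAD1 score on the x axis and of the TEAD4 score on the y axis, each within its own list. All sites but the BIRC5 site at 77.0 and 92.0 lie below the line of equal percentile, and the BCL2L1 and MCL1 sites with HA-YAP5SA lie at the upper right corner. The TEAD1 list is the longer, so the line does not mark equal binding.

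The antibodies against YAP and TAZ gave no peak at any of the 5 genes. Over the genome 0.909% of the 200 kb tiles held a YAP peak and 0.326% a TAZ peak, so an empty window was the usual case for these lists. A count of 0 of 454 YAP peaks allows a share of up to 0.661%, and 0 of 153 TAZ peaks a share of up to 1.96%, for counting error only. With no YAP peak in these windows, none of the 33 TEAD1 and 3 HA-YAP5SA peaks could overlap one, so this is not a further result. Over the whole lists, 0.21% of TEAD1 peaks and 6.49% of HA-YAP5SA peaks overlapped a YAP peak. The nearest YAP peak was 479 kb from the HA-YAP5SA peak at BCL2L1, 659 kb from the one at MCL1 and 27009 kb from the one upstream of BIRC3. These lists are short, so binding of YAP or TAZ at these genes was not detected here and is not shown to be absent.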

How the data were processed

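Chromatin of HuCCT1 cells was fixed with formaldehyde, sonicated and precipitated with antibodies to HA, YAP, TAZ and both TEADs, per the labels' protocols. The submitters' processing notes name Bowtie2 and hg19. Peaks carry names that start with MACS, per the deposited files. How MACS was run, with which threshold and controls, is not given in the sources used here, so list length mixes precipitation strength, depth and threshold. Each list comes from 1 library, and the deposited score is the authors' value per peak on an unstated scale.

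Starts in the lists without a header were taken as counted from 0 and raised by 1, so starts are uncertain by 1 bp. Peaks overlapped when they shared at least 1 bp. Percentiles rank scores within a list, and intervals are exact binomial (Clopper-Pearson) or, for median percentiles, order-statistic intervals at 95%. A count of 0 was read as allowing 3. No test was made, since there are no replicates. The overlap and window steps were tested on simulated data. Gene lengths, neighbours, strands of BCL2L1, BIRC2 and BIRC3 and promoter sequences are from RefSeq (GRCh38.p14), and the strands of MCL1 and BIRC5 are general knowledge. The genes and tests were chosen with earlier results of these data known. Named are every HA-YAP5SA, YAP or TAZ peak, and for TEAD1 and TEAD4 the nearest, the highest and those with HA-YAP5SA at each gene. The other TEAD peaks are given for completeness. Other BCL2-family and IAP genes needed an hg19 annotation and were not analysed here. Software was pandas 2.3.3, NumPy 2.4.6 and SciPy 1.17.1 under Python 3.11.15, with matplotlib 3.10.9 for figures.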

Additional observations from a re-analysis of the deposited data

How the results depend on the processing

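Windows of 200 kb either side of the TSS raised the number of peaks to 66 for TEAD1 and 32 for TEAD4, and dropping peaks scored below their list median left 20 and 11. With 50 kb windows, 100% of the TEAD4 peaks overlapped TEAD1 (12 of 12), as they did without the peaks 80 to 100 kb upstream of BIRC3 (14 of 14, 100%), an alternative chosen after seeing the data. Both leave out the TEAD4 peaks on the YAP1 side. Measured from peak edges, the TEAD1 peak nearest the BCL2L1 TSS was the one carrying HA-YAP5SA, at 3.23 kb. Over tiles with a TEAD1 peak alone, which drops empty tiles, the shares for TEAD1 were 4.78% for BCL2L1 and BIRC3, 10.4% for MCL1 and BIRC2 and 40.7% for BIRC5. For TEAD4 they were 3.92% for BCL2L1, 15.3% for MCL1, 2.21% for BIRC3, 7.73% for BIRC2 and 29% for BIRC5. Without the peaks on the YAP1 side, 7.23% of all tiles had as many TEAD1 and 10.7% as many TEAD4 peaks as BIRC3. The other 75 of 94 alternative values for the loci as a whole, their TSS distances and tile shares stayed within a factor of 1.5 for counts, within the interval of the value reported, or on the same nearest peak. Of 45 alternative counts for single genes, 16 moved. With 50 kb windows TEAD1 counts were 6 at BIRC3, 5 at BIRC2 and 1 at BIRC5, TEAD4 counts 3, 2 and 1, and BIRC3 had 0 HA-YAP5SA peaks. With 200 kb windows the other counts that moved were TEAD1 at BCL2L1 (17), BIRC3 (20), BIRC2 (20) and BIRC5 (17), TEAD4 at the same genes (10, 10, 11 and 8) and HA-YAP5SA at BIRC2 (1). Leaving out replicates was not possible with 1 library per antibody. No paired analysis was possible because no groups share replicates. Unknown depth and the short YAP, TAZ and HA-YAP5SA lists limit what their missing peaks show.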
